A study of Homo sapiens with 12 samples.

Results

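Chromosome 19 carries long tandem arrays of zinc finger genes, and protein-protected RNA sites inside 3 of these arrays were compared with sites on the rest of the chromosome. A site was counted in a cluster when its midpoint lay in build hg19 at chr19:36600000-38400000 (the proximal cluster), chr19:52350000-53900000 (the middle cluster) or chr19:57600000-59100000 (the distal cluster), on either strand. The intervals span 1.8, 1.55 and 1.5 Mb. They held 4055 of the 513381 sites in 6 replicate lists, and the rest of chromosome 19 held 27288. In the authors' merged list of both nucleases they held 2151 of 293016 sites, against 14620 on the rest of the chromosome.

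The genes of these arrays mostly encode KRAB zinc finger proteins, a family of DNA-binding repressors that spread by repeated local duplication. Their tandem C2H2 fingers read DNA, and the KRAB domain recruits the co-repressor TRIM28 (also known as KAP1), which is best known for silencing transposable elements. Because neighbouring copies are close in sequence, a short read from one can match several. The handling of such reads was not given in the sources used here, and a site and its near-identical copy elsewhere in the array cannot be told apart.

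RNA-protein contacts were mapped by protein interaction profile sequencing in HEK293T, an established line of human embryonic kidney cells. In all 12 libraries the cells had been fixed for 10 minutes in 1% formaldehyde, stopped with 125 mM glycine. In 3 ssRNase footprint libraries the lysate was digested with RNase ONE, which cuts unpaired RNA, and in 3 dsRNase footprint libraries with RNase V1, which cuts paired RNA. In 3 ssRNase and 3 dsRNase digestion-control libraries, protein was removed with SDS and proteinase K before the same nuclease was added. Reversal of the cross-links took 2 hours at 65 degrees, and a duplex-specific nuclease was used on every library to lower abundant sequences. Each replicate list holds the stretches that the authors called as protected in a footprint library over its control. The lists hold positions and scores without read counts, so the depth behind a site is unknown. Nothing in the labels says that the replicates came from separate cultures, and p-values measure only the spread between the lists.

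No annotation of build hg19 was used, so no site was assigned to a gene. RefSeq (GRCh38.p14) was consulted only for which genes neighbour each other: of 1451 protein-coding genes on chromosome 19, 250 are named ZNF and a number, and 226 of these sit next to another such gene. At the end of the long arm, where the distal cluster lies, that order runs past ZNF274, ZNF544, ZNF8, ZSCAN22, ZNF497, ZNF837, ZNF584, ZNF132, ZNF324, ZNF446 and TRIM28 to MZF1. That stretch thus also holds the gene of TRIM28 itself. The rest of chromosome 19 contains further zinc finger arrays, which stayed in the comparison.

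With ssRNase, sites were denser in the clusters than over the chromosome. The clusters covered 8.21% of chromosome 19 up to its last listed position, the centromere included. With ssRNase they held 13.15%, 14.10% and 13.52% of the chromosome's sites, against 9.06%, 10.4% and 9.36% with dsRNase. All 3 ssRNase shares were above all 3 dsRNase shares. The mean share was 13.6 ± 0.479% over the ssRNase lists and 9.62 ± 0.717% over the dsRNase lists (SD, n = 3 each), 3.97 points apart. The two-sided exact permutation test of 3 against 3 lists gave p = 0.1, the smallest it allows, so no such comparison could pass 0.05.

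In numbers of sites, the clusters held 1618, 579 and 1448 in the ssRNase lists and 118, 181 and 111 in the dsRNase lists. The short second ssRNase list still had more than any dsRNase list. The ratio of the mean number with ssRNase to that with dsRNase was 8.89 in the clusters, against 6.15 on the rest of chromosome 19. By covered bases the ratio was 13.6 in the clusters, against 8.96 on the rest. The ratio of site numbers was 10.97 in the proximal, 7.42 in the middle and 8.73 in the distal cluster. These ratios carry the different lengths of the lists, which a share within the chromosome does not.

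The distal cluster, though the shortest, held most sites in every list. It had 821, 291 and 730 sites with ssRNase and 52, 104 and 55 with dsRNase. The proximal cluster had 451, 160 and 398 sites with ssRNase and 31, 35 and 26 with dsRNase. The middle cluster had 346, 128 and 320 with ssRNase and 35, 42 and 30 with dsRNase. The middle cluster was thus lowest in all ssRNase lists, and the proximal cluster lowest in all dsRNase lists. The distal cluster covers 2.54% of the chromosome and held 6.86 ± 0.210% of its sites with ssRNase and 4.87 ± 1.02% with dsRNase. The proximal cluster covers 3.05% and held 3.76 ± 0.121% with ssRNase and 2.20 ± 0.182% with dsRNase. The middle cluster covers 2.62% and held 2.97 ± 0.153% with ssRNase against 2.55 ± 0.135% with dsRNase (SD over 3 lists throughout). With dsRNase, only the distal of the 3 clusters held more than its share of the length on average.

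**Figure D1:**
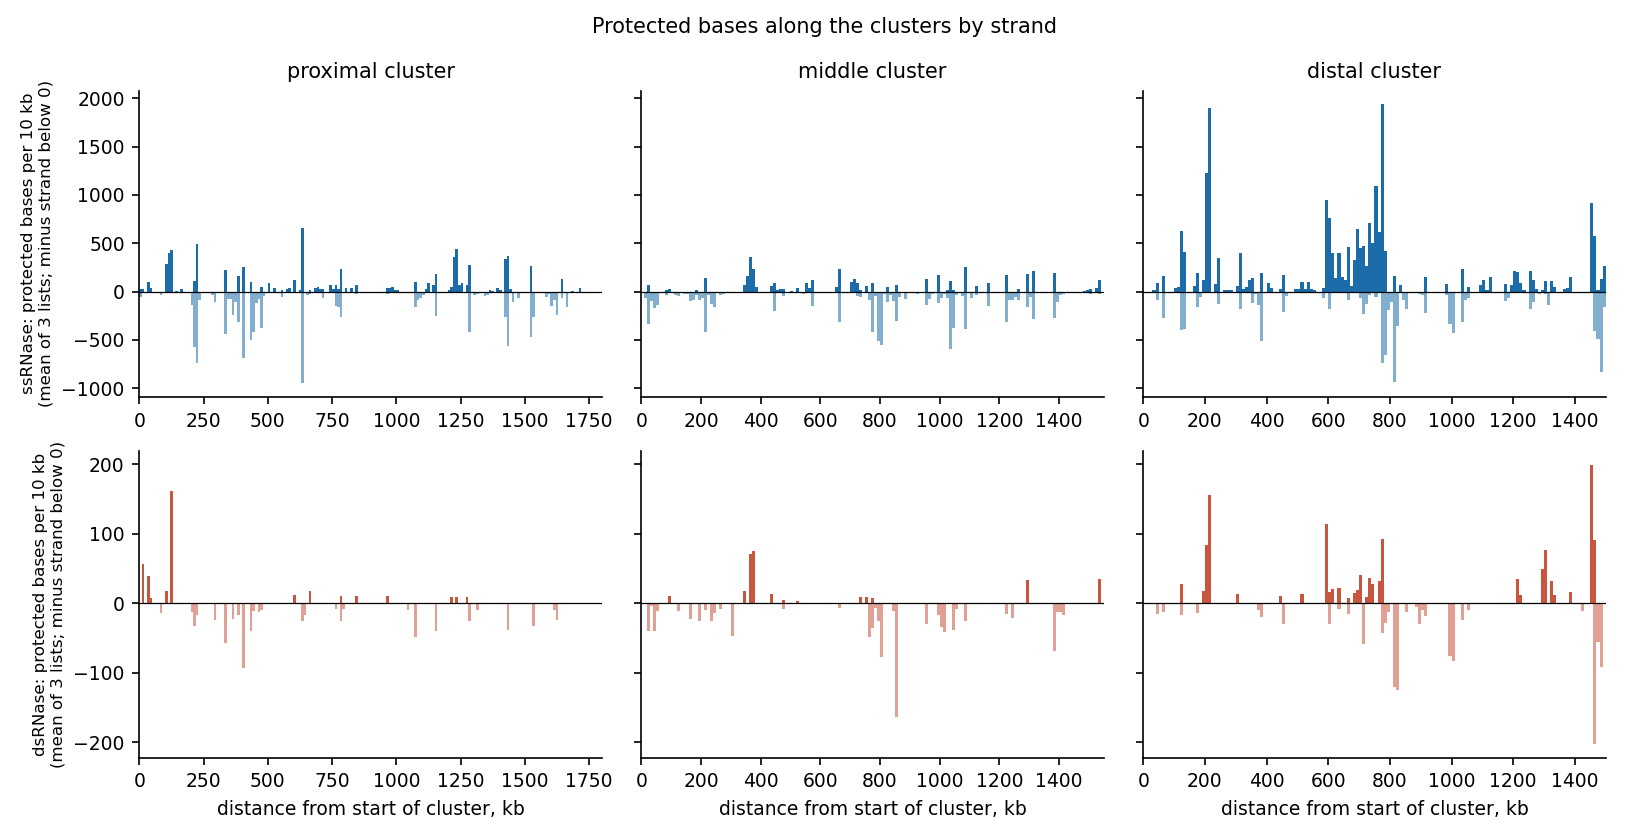
Site bases per 10 kb position along each cluster, as distance from the cluster's start, with ssRNase above dsRNase and the plus strand above the minus strand in each panel. A stretch of the distal cluster is filled with plus-strand ssRNase sites, and the middle cluster is led by the minus strand.

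Sites on facing strands were about 2 times as frequent in the clusters as on the rest of the chromosome with ssRNase. A site was counted as facing when it overlapped, by at least 1 nt, a site of the same list on the other strand. In the clusters 19.4%, 23.7% and 22.2% of the ssRNase sites were facing, against 9.42%, 11.6% and 11.03% on the rest of chromosome 19. Every cluster share lay above every share of the rest. The mean was 21.7 ± 2.16% in the clusters and 10.7 ± 1.13% on the rest (SD, n = 3 lists), and the within-list difference was 11.1 ± 1.04 points.

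With dsRNase such pairs were nearly missing. The facing counts were 2 of 118, 0 of 181 and 2 of 111 cluster sites, or 1.69%, 0% and 1.80%, against 0%, 0% and 0.186% on the rest. Few dsRNase sites had any site on the other strand within 1000 nt. In the clusters 4, 0 and 4 sites had one, and 2, 0 and 2 were facing. On the rest 9, 12 and 14 had one, and 0, 0 and 2 were facing. A count of 0 of 181 allows a share of up to 1.66%, by counting error only, and those of 0 of 1184 and 0 of 1555 on the rest allow up to 0.253% and 0.193%. Over all 6 lists the clusters were 6.08 points above the rest (higher in 5 lists and tied at 0 in 1, two-sided exact sign-flip permutation p = 0.0625, adjusted p = 0.125 over 6 measures). The difference between the nucleases in this contrast was 9.96 points (exact permutation p = 0.1, the smallest possible, adjusted p = 0.15). Neither test passed, although the ssRNase values did not overlap. At an equal number of best-scoring sites in every list, the ssRNase contrast was 5.58 points and the difference between nucleases 4.47 points.

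All 3 clusters showed the pattern, with the proximal cluster highest. Its ssRNase shares of facing sites were 25.9%, 36.9% and 26.9%. The middle cluster had 20.8%, 21.9% and 23.4%, and the distal cluster 15.2%, 17.2% and 19.04%. Each cluster was above the rest of the chromosome in every ssRNase list. Other zinc finger arrays of chromosome 19 lay in between, at 14.5%, 16.5% and 18.2%. Their bounds were approximate, set from general knowledge and not from an annotation, so arrays may be missed or mixed with other genes. Among whole chromosomes 1 to 22, chromosome 14 was highest, at 11.7%, 23.9% and 14.3%, and it exceeded the clusters in the second ssRNase list alone. Stretches of like size on other chromosomes were not measured, so the clusters cannot be ranked among such stretches.

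**Figure D2:**
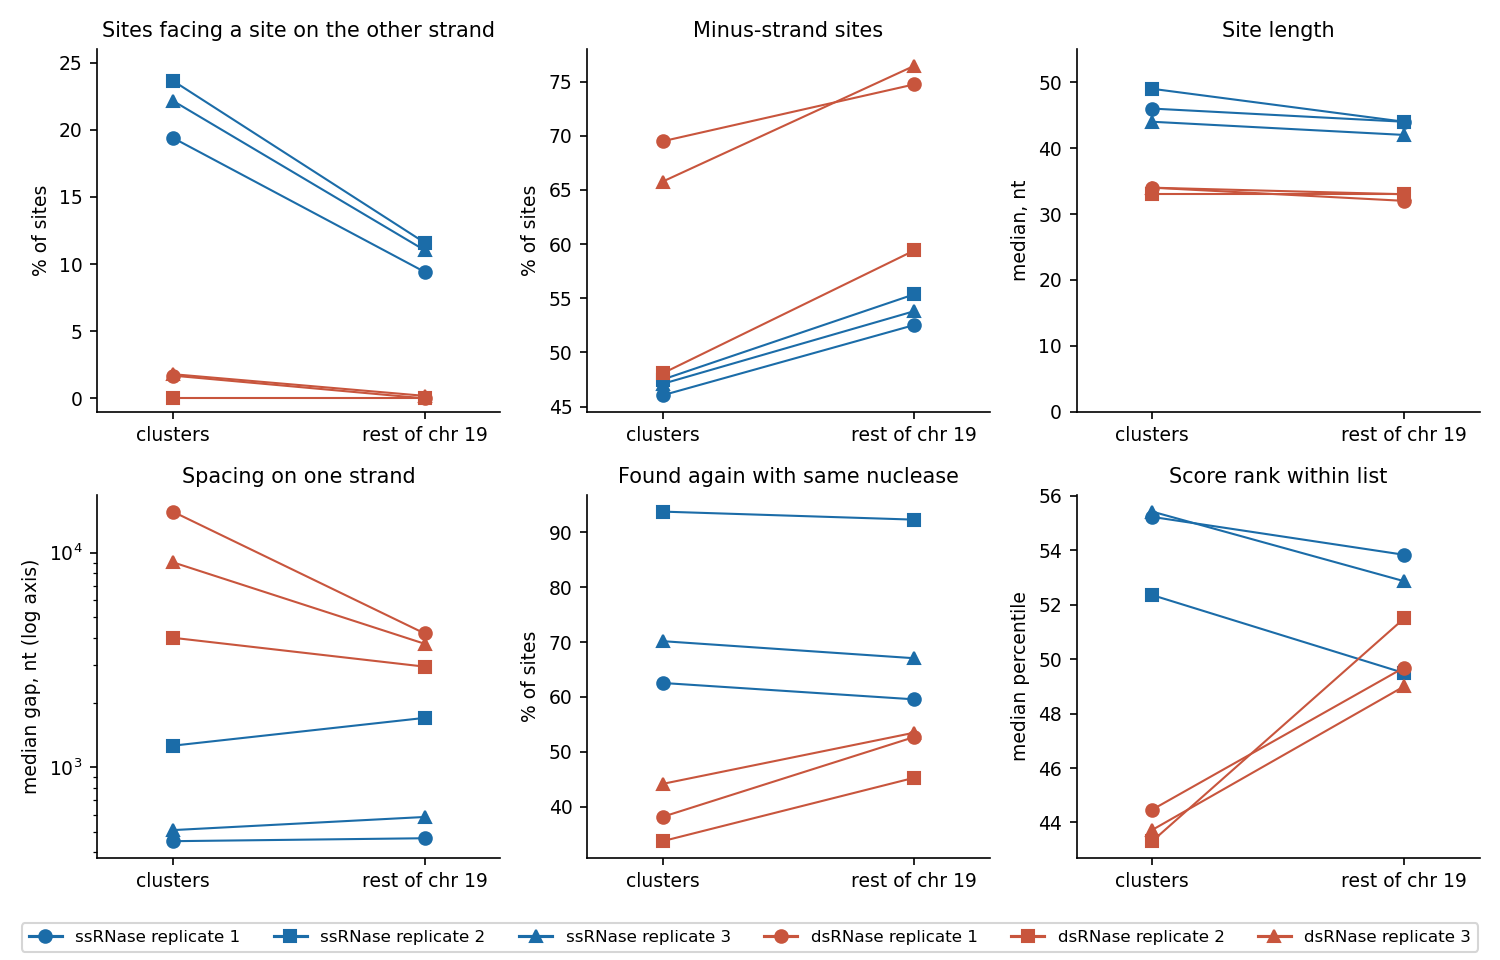
The 6 measures per list, clusters left of the rest of chromosome 19, each point one replicate list and each line joining the values of one list. The facing share separates the clusters from the rest with ssRNase (blue), while the dsRNase lists (red) stay at or near 0.

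As on the rest of the chromosome, facing sites in the clusters were longer, better scored and more often found again than the others. Their median length was 67, 69 and 64 nt, against 44, 45 and 42 nt for non-facing cluster sites of the same ssRNase lists. Of the facing sites 90.4%, 99.3% and 89.1% overlapped a same-strand site of another ssRNase list, against 55.8%, 92.1% and 64.8% of the non-facing ones. Their median score lay at percentile 72.4, 63.1 and 74.9 of the list, against 50.1, 49.5 and 50.9 for non-facing sites. A longer site has more room to overlap, so length and facing are not independent. On the rest of chromosome 19 the facing sites had a mean over lists of 63.8 nt, percentile 68.9 and 92.5% found again, against 42.3 nt, 50.1 and 70.7% for the non-facing ones. The score is the authors' own and was used only as a rank within a list.

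The width of the overlap differed little. Facing sites overlapped by a median of 48, 51 and 48 nt in the clusters, and 49, 46 and 47 nt on the rest of chromosome 19, so that it was narrower in the clusters in the first list and wider in the others. A site on the other strand lay within 1000 nt of 35.7%, 46.6% and 40.9% of cluster sites, against 17.5%, 22.3% and 19.6% on the rest. Of the sites with such a neighbour, 54.3%, 50.7% and 54.2% were facing in the clusters, against 53.7%, 52.0% and 56.3% on the rest. The second share overlapped in range between the clusters together and the rest, and the first did not. By cluster the second share averaged 62.8% in the proximal, 52.1% in the middle and 46.7% in the distal cluster, against 54.0% on the rest (n = 3 lists).

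Some 10 kb positions of the clusters held facing sites in every ssRNase list. Of these positions, 70 held facing sites in any ssRNase list and 36 in all 3. Such a count was not made on the rest of chromosome 19. Single facing sites were found again about as often there, at a mean of 92.5%, against 92.9% in the clusters. The position chr19:58370001-58380000 in the distal cluster held 20, 8 and 27 facing sites. In the proximal cluster, chr19:37230001-37240000 held 15, 11 and 16, and chr19:36820001-36830000 held 12, 4 and 16. These positions were ranked by their mean over the same ssRNase lists, so their richness there goes with the choice. Without these 3 positions, chosen after their values were seen, 17.5%, 22.01% and 19.6% of the remaining cluster sites were facing.

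In the merged ssRNase list the clusters held 2082 sites, which formed 219 facing pairs with a median overlap of 51 nt, and 18 overlaps reached 100 nt or more. The longest lay in the distal cluster at chr19:57981475-57981695, where a plus-strand site of 223 nt met a minus-strand site of 264 nt over 221 nt. All 3 ssRNase lists covered both strands there, with 219, 149 and 218 plus-strand bases and 232, 259 and 248 minus-strand bases, and no dsRNase list had a site. The next longest overlaps were 157 nt at chr19:57911820-57911976 and 154 nt at chr19:57770904-57771057, both in the distal cluster. At the last of these, the second ssRNase list had no plus-strand site.

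The clusters leaned less to the minus strand than the rest of the chromosome. With ssRNase 46.0%, 47.5% and 47.1% of cluster sites were on the minus strand, against 52.5%, 55.4% and 53.8% on the rest. With dsRNase the shares were 69.5%, 48.1% and 65.8% in the clusters, against 74.7%, 59.4% and 76.5% on the rest. The clusters were lower in 6 of 6 lists, with a mean contrast of -8.07 points (two-sided exact sign-flip permutation p = 0.03125, the smallest possible, adjusted p = 0.125 over 6 measures). The difference between the nucleases was 2.07 points (exact permutation p = 0.4).

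The clusters did not share this lean. In the distal cluster 30.5%, 33.3% and 32.6% of ssRNase sites were on the minus strand. In the middle cluster the shares were 69.9%, 67.2% and 67.8%, and in the proximal cluster 56.1%, 57.5% and 57.0%. The distal and the middle cluster thus lay on opposite sides of the rest of the chromosome in every ssRNase list. With dsRNase the minus-strand share was 63.5%, 33.7% and 58.2% in the distal, 80.0%, 71.4% and 80.0% in the middle and 67.7%, 62.9% and 65.4% in the proximal cluster. The distal cluster was lowest in every dsRNase list too.

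By 10 kb position the same order appeared. Of the distal positions with ssRNase sites, 75 had more bases on the plus and 36 on the minus strand. In the middle cluster 25 positions were led by the plus strand and 69 by the minus strand, and in the proximal cluster 46 and 59. Transcription direction of the genes was not analysed here.

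A single long stretch of plus-strand sites lay in the distal cluster. At chr19:58230001-58390000 on the plus strand, 16 windows of 10 kb in a row had sites in all 3 ssRNase lists. The longest such runs on the rest of chromosome 19 had 11 windows, and the next longest in the clusters had 6. The run was singled out after its values were seen. It held 216, 81 and 198 plus-strand sites with ssRNase, or 26.3%, 27.8% and 27.1% of all distal sites, against 4, 18 and 3 sites with dsRNase, or 7.69%, 17.3% and 5.45%. Its opposite strand had 37, 22 and 41 sites with ssRNase and 3, 5 and 5 with dsRNase.

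The run was chosen by its ssRNase sites, so short ssRNase gaps go with the choice. The median gap to the next plus-strand site was 271, 550 and 257 nt with ssRNase. In the whole distal cluster, over each strand, it was 279, 901 and 352 nt. With dsRNase the median gap in the run was 67710, 5499 and 48715 nt, on only 4, 18 and 3 sites. Of its plus-strand sites 10.6%, 6.17% and 12.1% were facing with ssRNase, fewer than in the distal cluster as a whole. Without the run, 37.5%, 39.9% and 40.1% of the distal ssRNase sites were on the minus strand, still below the rest of the chromosome in every list. Over the 3 clusters together, in which the middle and the proximal cluster offset the distal one, the shares without the run were 51.9%, 53.2% and 53.0%. The mean ssRNase contrast of the clusters to the rest was then -1.23 points, against -7.03 ± 0.743 with the run. For dsRNase the contrast was -7.18 without the run and -9.10 ± 3.35 with it.

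**Figure D3:**
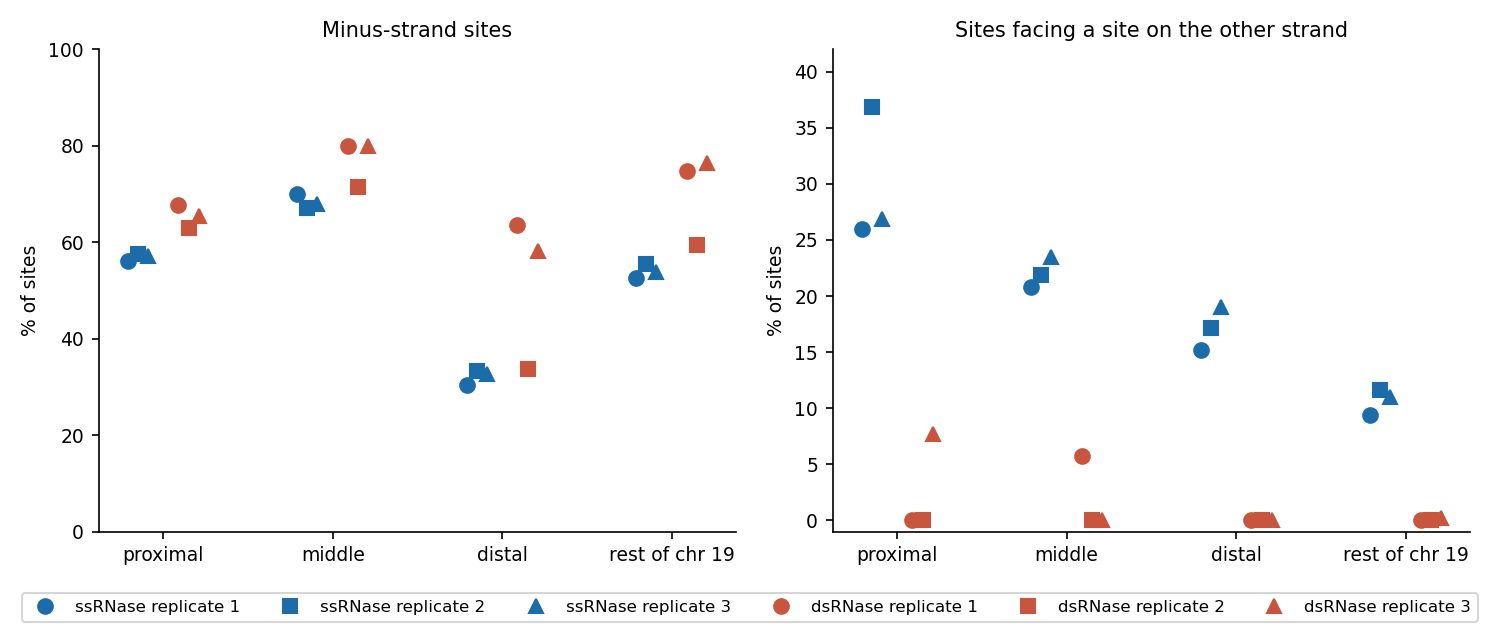
Facing share and minus-strand share of ssRNase and dsRNase sites in each cluster beside the rest of chromosome 19, one point per list. The distal and the middle cluster lie on opposite sides of the rest in minus-strand share, and all 3 clusters lie above it in ssRNase facing share.

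Cluster sites were slightly longer. The median length was 46, 49 and 44 nt in the clusters with ssRNase, against 44, 44 and 42 nt on the rest. With dsRNase it was 34, 33 and 34 nt in the clusters and 32, 33 and 33 nt on the rest. The clusters were longer in 5 lists and equal in 1, by 2.0 nt on average (exact sign-flip permutation p = 0.0625, adjusted p = 0.125). Sites of 100 nt or more made up 7.79%, 7.25% and 5.80% of ssRNase cluster sites, against 3.79%, 3.52% and 3.69% on the rest. The ranges of these long-site shares did not overlap.

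Spacing depended on the nuclease and on the cluster. The median gap between neighbouring sites on a strand was 451, 1258 and 508 nt in the clusters with ssRNase, against 465.5, 1696 and 585 nt on the rest. With dsRNase it was 15553, 4011 and 9027 nt in the clusters, against 4199.5, 2941 and 3759 nt on the rest. By these medians, cluster sites were nearer to each other in all ssRNase lists and farther apart in all dsRNase lists. The log2 ratio of the median gap, clusters over rest, averaged -0.23 ± 0.194 for ssRNase and 1.20 ± 0.723 for dsRNase lists (SD, n = 3 each). The difference between nucleases was -1.43 (exact permutation p = 0.1, the smallest possible, adjusted p = 0.15). The mean over 6 lists was 0.49 (exact sign-flip permutation p = 0.34375). The ssRNase sign rested on the distal cluster: the ssRNase mean was -0.79 there, 0.07 in the proximal and 1.20 in the middle cluster, and 0.09 over all clusters without the plus-strand run. It was 0.43 on the minus strand alone. The dsRNase mean was -0.20 on the plus strand alone and -0.49 with mean in place of median gaps.

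Gaps of at most 100 nt made up 26.6%, 19.7% and 24.0% of ssRNase gaps in the clusters, against 25.4%, 13.9% and 21.8% on the rest. With dsRNase they made up 3.57%, 9.71% and 6.67% in the clusters, against 10.95%, 12.8% and 10.5% on the rest.

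Recurrence, the share of sites that overlapped a same-strand site in another list of the same nuclease, also split. With ssRNase it was 62.5%, 93.8% and 70.2% in the clusters, against 59.6%, 92.3% and 67.1% on the rest. With dsRNase it was 38.1%, 33.7% and 44.1% in the clusters, against 52.7%, 45.3% and 53.5% on the rest. Cluster sites were found again more often in all ssRNase lists and less often in all dsRNase lists. The contrast was 2.52 ± 0.918 points with ssRNase and -11.8 ± 2.62 points with dsRNase, and the difference between nucleases was 14.4 points (exact permutation p = 0.1, adjusted p = 0.15). The second ssRNase list, with the highest value, is also the shortest of its nuclease and is compared with the longest ones. Whether its length explains the value was not tested. Over the 3 clusters together, median score ranks had the same signs, 2.27 ± 0.777 percentile points with ssRNase and -6.23 ± 1.70 with dsRNase.

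Stranded windows of 10 kb gave the balance of the nucleases along the clusters. Of 970 such windows 405 held a site and 247 held a site in at least 3 of the 6 lists, the filter for the test. For each window the bases under sites were scaled to 1000000 per list, 20 was added and log2 taken, and limma was fitted over 31432 windows of all chromosomes. In the clusters 98 of 247 windows were higher with ssRNase (39.7%), where 26.6% of all tested windows were called, and 489 of 1549 (31.6%) on the rest of chromosome 19. Higher with dsRNase were 13 cluster windows (5.26%), where 7.04% of all tested windows were called, and 94 windows (6.07%) on the rest.

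The median difference was 0.69 in the clusters, 0.56 on the rest of chromosome 19 and 0.43 over all windows. Of the 98 windows 91 had no dsRNase site at all. These passed the filter only through the ssRNase lists, so they had to lie higher with ssRNase, and their number supports nothing further. Among the 136 cluster windows with sites of both nucleases, 7 were higher with ssRNase (5.15%), where 2.4% of such windows were called over all chromosomes and 4.12% on the rest of chromosome 19. Higher with dsRNase were 13 of the 136 (9.56%), where 10.8% were called over all chromosomes and 9.37% on the rest. Both cluster shares were near those of the rest of the chromosome. The proximal cluster had 30 calls higher with ssRNase and 2 higher with dsRNase among 71 windows, the middle cluster 25 and 5 among 74, and the distal cluster 43 and 6 among 102. With the replicate number as a block, or without any 1 of the ssRNase lists, 0 cluster windows were called by limma in either direction. An unadjusted p below 0.05 was then reached by 114 windows with the block and by 14 to 24 without a list.

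**Figure D4:**
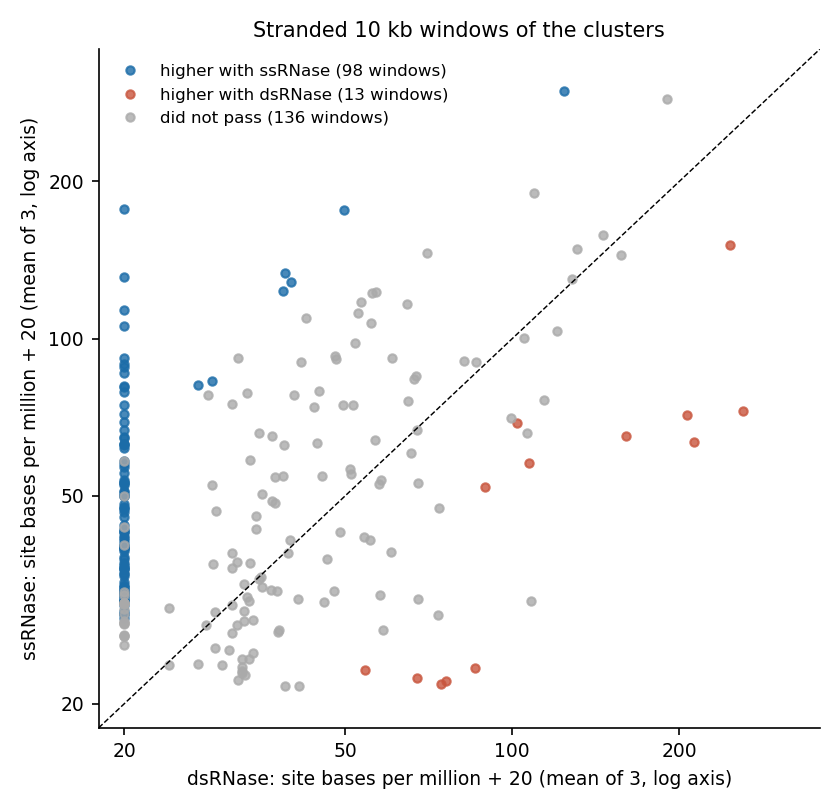
Mean site bases per 1000000 + 20 in each tested stranded window of the clusters, ssRNase on the y axis and dsRNase on the x axis, both log scaled, coloured by the limma call. The column of points at the left edge holds the windows with no dsRNase site, which make up 91 of the 98 windows called higher with ssRNase.

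The largest difference toward ssRNase lay inside the plus-strand run of the distal cluster. The window chr19:58350001-58360000 on the plus strand held 1659, 492 and 1122 site bases with ssRNase and 0 in every dsRNase list. The difference was 3.14 on the log2(bases per 1000000 + 20) scale. In the proximal cluster, chr19:37230001-37240000 on the plus strand held 748, 496 and 728 bases with ssRNase and 0 with dsRNase (difference 2.64). Its minus strand held 1045, 658 and 1138 bases with ssRNase and 26, 26 and 25 with dsRNase (difference 1.76, limma adjusted p = 0.0103). The plus-strand windows named here passed the filter through the ssRNase lists alone. They had to lie higher with ssRNase, so their differences are a description. The position chr19:37230001-37240000 is also one of those named above for their ssRNase facing sites, so its ssRNase bases on both strands are a description.

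The position chr19:36820001-36830000 was likewise named for its facing sites. Its plus strand had 501, 399 and 574 bases with ssRNase and 0 with dsRNase (difference 2.31), and passed the filter through the ssRNase lists alone. Its minus strand had 899, 402 and 930 with ssRNase and 21, 31 and 0 with dsRNase (difference 1.87, limma adjusted p = 0.0193). The leading minus-strand windows without a dsRNase site were chr19:53380001-53390000 in the middle cluster and chr19:38120001-38130000 in the proximal cluster. The first held 730, 355 and 700 ssRNase bases (difference 2.48) and the second 494, 253 and 649 (difference 2.17).

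The richest windows were not the most one-sided. The plus-strand window chr19:57810001-57820000 of the distal cluster held 3017, 797 and 1881 bases with ssRNase and 91, 302 and 73 with dsRNase. Relative to list size these groups overlapped, and the window did not pass (difference 0.76, limma adjusted p = 0.238). The plus-strand window chr19:58370001-58380000, near the end of the run, held 2551, 830 and 2429 bases with ssRNase and 68, 135 and 73 with dsRNase, and it passed (difference 1.29, limma adjusted p = 0.0119). It was named for its ssRNase bases, and its position also for its ssRNase facing sites, so its difference is a description. On the minus strand, chr19:53150001-53160000 and chr19:37000001-37010000 held sites of both nucleases at like shares, with differences of 0.13 and 0.04 (limma adjusted p = 0.896 and 0.958).

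The 13 windows higher with dsRNase lay in all 3 clusters. At the outer end of the distal cluster, the minus-strand window chr19:59060001-59070000 held 653, 117 and 440 bases with ssRNase and 165, 150 and 293 with dsRNase. Its difference was -1.77 (SE 0.340, limma adjusted p = 0.0148), since the dsRNase lists are much shorter. In the middle cluster, chr19:53200001-53210000 on the minus strand held 422, 124 and 376 bases with ssRNase and 213, 127 and 151 with dsRNase (difference -1.70, limma adjusted p = 0.00920). In the proximal cluster, chr19:36720001-36730000 on the plus strand held 842, 67 and 392 bases with ssRNase and 159, 174 and 151 with dsRNase (difference -1.62, limma adjusted p = 0.0171). Each of these windows held sites in all 6 lists, so none passed the filter through one nuclease alone. They were named for their dsRNase bases or for their difference toward dsRNase, so the size of that difference goes with the choice.

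Other windows toward dsRNase were sparse. The plus-strand window chr19:36610001-36620000 had the largest difference, -1.86 (limma adjusted p = 0.00568), on 36, 0 and 54 bases with ssRNase and 46, 54 and 69 with dsRNase. The plus-strand window chr19:58890001-58900000 had 31, 0 and 28 with ssRNase and 32, 58 and 56 with dsRNase. The minus-strand window chr19:52650001-52660000 had 57, 0 and 0 with ssRNase and 31, 57 and 54 with dsRNase. In these windows each list with any site had 1 to 3 of them. The plus-strand window chr19:59050001-59060000 passed narrowly (difference -0.68, limma adjusted p = 0.0481) with sites in all 6 lists. The remaining 6 windows had differences of -1.59 to -0.56, and 4 of them held sites in all 6 lists.

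In the merged list 85.5% of the cluster sites came from ssRNase alone (1839 of 2151, 95% Clopper-Pearson interval 83.9 to 87.0), against 82.5% on the rest of chromosome 19. Sites from dsRNase alone made up 3.49% in the clusters and 4.51% on the rest. Sites with support from both nucleases made up 11.02% in the clusters (237 sites, 9.73 to 12.4) and 12.9% on the rest. Intervals cover counting error only, and neighbouring sites are not independent. Merged sites of 100 nt or more made up 8.83% in the clusters and 6.15% on the rest.

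Support from all 6 lists was rare in the clusters. It was found at 6 of 2151 merged sites, or 0.279% (0.102 to 0.606), against 105 of 14620, or 0.718% (0.588 to 0.869), on the rest, and these intervals overlap slightly. Sites with exactly 3 lists made up 18.5% in the clusters and 15.6% on the rest. Of the 6 sites, 4 were in the distal, 2 in the middle and 0 in the proximal cluster, where 0 of 604 allows a share of up to 0.609% (upper Clopper-Pearson bound).

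The longest of the 6 was chr19:59056274-59056424 on the plus strand, of 151 nt. It held 147, 110 and 114 bases with ssRNase, against 25, 24 and 37 with dsRNase, so that every ssRNase list covered more of it. At chr19:58193855-58193965 on the plus strand, ssRNase lists covered 108, 99 and 77 bases and dsRNase lists 22, 49 and 42. At chr19:52722964-52723064 on the plus strand they covered 92, 45 and 51 bases with ssRNase and 51, 54 and 50 with dsRNase. Here the nucleases agreed to within a few bases outside the first ssRNase list. The others were chr19:58378644-58378734 on the plus strand, at 61, 63 and 67 bases with ssRNase and 39, 37 and 39 with dsRNase, chr19:58608214-58608282 on the minus strand and chr19:53158814-53158863 on the minus strand.

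The longest merged site of the clusters lay in the proximal one, at chr19:37002141-37002562 on the minus strand, and spanned 422 nt. It joined 11 replicate sites of 4 lists, with 402, 374 and 347 bases in the ssRNase lists and 0, 0 and 29 in the dsRNase lists. Its best-scored sites stood at percentile 99.4, 98.9 and 97.9 of the ssRNase lists. The next longest were all in the distal cluster and from ssRNase alone: 296 nt at chr19:57911805-57912100, 265 nt at chr19:58371807-58372071 and 249 nt at chr19:57840891-57841139 on the plus strand, and 264 nt at chr19:57981475-57981738 on the minus strand. The first and the last of these are also members of the longest facing overlaps.

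Long dsRNase sites were few. The longest spanned 119 nt at chr19:59059690-59059808 on the plus strand in the third dsRNase list. The next spanned 118 nt at chr19:53209113-53209230 on the minus strand in the first dsRNase list, at percentile 99.4 of its scores. The merged site over it, chr19:53209103-53209230, joined 8 replicate sites and held 100, 0 and 46 bases with ssRNase against 118, 92 and 54 with dsRNase. It lies in the window chr19:53200001-53210000 that was higher with dsRNase.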

How the data were processed

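Adapters were trimmed with cutadapt 0.9.5 and reads aligned with TopHat2 2.0.9 on build hg19, per the submitters' processing notes. Per the names of the deposited lists, CSAR made the calls, with FDR set to 5%. The score of each site was deposited by the authors on a scale not given in the sources used here, nor is their rule for merging lists. The members, windows and comparisons were chosen with earlier results of these data known.

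Cluster and rest were compared within each list, over 6 measures, by a two-sided exact sign-flip permutation over 6 lists (smallest p 0.03125), and nucleases by exact permutation of 3 against 3 lists. Both were Benjamini-Hochberg adjusted. With 3 lists of 1 nuclease no such test can pass. These tests compare the spread between lists, not between regions. The window test used limma 3.58.1 under R 4.3.3 (threshold 0.05 on the adjusted p). Differences on that scale are understated in sparse windows. Tables were handled with pandas 2.3.3 and numpy 2.4.6 in Python 3.11.15, tests with scipy 1.17.1 and figures with matplotlib 3.10.9. The code was tested on simulated data.

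Named were, per cluster, the 2 windows with most ssRNase and the 2 with most dsRNase bases, up to 5 called windows per direction with the largest differences and no overlap between nucleases, merged sites found in all 6 lists, the 5 longest merged sites, the 3 with most replicate sites, the longest replicate-list sites and the 3 longest facing overlaps. Reads per site are unknown, so precision rests on the number of sites and the spread between lists.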

Additional observations from a re-analysis of the deposited data

Results flagged for a closer look

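In 3 measures the clusters moved one way against the rest of chromosome 19 in every ssRNase list and the opposite way in every dsRNase list, over all sites and all 3 clusters. With 3 lists a nuclease, the exact permutation test of these differences could not go below p = 0.1, so none could pass 0.05.

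The log2 ratio of the median gap, clusters over rest, was -0.23 with ssRNase and 1.20 with dsRNase, a difference of -1.43. These signs did not hold throughout: the ssRNase value was 0.43 on the minus strand alone, 1.20 in the middle cluster and 0.09 without the plus-strand run, and the dsRNase value was -0.20 on the plus strand alone and -0.49 with mean gaps. The recurrence contrast was 2.52 points with ssRNase and -11.8 points with dsRNase, a difference of 14.4 points. The median score percentile contrast was 2.27 points with ssRNase and -6.23 points with dsRNase, a difference of 8.50 points. Its signs did not hold in each cluster. In the proximal cluster the dsRNase contrast was 9.09, -8.19 and -0.757 points, and in the middle cluster the ssRNase contrast was 0.526, -2.15 and 2.56 points.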

How the results depend on the processing

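Over 6 lists, the facing, length and recurrence contrasts and the cluster share kept their direction under every alternative run. For dsRNase alone the length contrast was -1.0 nt in the better-scoring 50%, against 1.0, and the facing contrast was 0 there and -0.062 in the distal cluster alone, against 1.10. The score percentile contrast was 1.44 in the better-scoring 50% of each list, against -1.98 in all sites, and its difference between nucleases was then -0.0189, against 8.50. It was 2.23 in the proximal cluster alone. The spacing log2 ratio, 0.49 over 6 lists, was -0.16 against chromosomes 1 to 22 without 19, -0.48 on the plus strand alone, -0.67 with means in place of medians and -0.24 in the distal cluster alone. The minus-strand contrast, -8.07 over 6 lists, was 10.7 in the middle cluster alone and -4.21 without the plus-strand run, and its difference between nucleases, 2.07, was -3.33 in the distal cluster alone. Single clusters, the run and the 3 richest facing positions were left out or taken alone after seeing the data. The cause was not tested.

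Replicate numbers did not pair the lists: the deviations of same-numbered lists correlated at 0.0174, -0.0631 and -0.0336. With the replicate block 0 and 0 cluster windows were called, against 98 and 13, although 114 had an unadjusted p below 0.05 and 0 were called over all chromosomes. Leaving out each list in turn gave 0 to 87 windows higher with ssRNase and 0 to 15 higher with dsRNase. Without an ssRNase list the filter leaves out windows with ssRNase sites alone, and 14 to 24 windows had an unadjusted p below 0.05. The other settings gave 76 to 113 and 10 to 12. Leaving out a list gave 4.89 to 7.30 points for facing, -8.63 to -7.41 for the minus strand and 3.70 to 4.38 for the cluster share. The minus-strand window at 37000001 differed by -0.40 by number of sites and by -0.22 to 0.23 with a list left out. The minus-strand window at 53150001 differed by -0.41 to 0.54 with a list left out.

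The ssRNase facing contrast was 11.05 points in the better-scoring 50% of each list, against 11.06 in all sites. At equal numbers of best-scoring sites it was 5.58 points, a setting that changes number and score together. At 21561 sites a list, the best-scoring ones, 7.88%, 15.7% and 12.6% of ssRNase cluster sites were facing, against 4.77%, 8.01% and 6.66% on the rest. With 111 to 181 sites a list, dsRNase shares in the clusters have wide counting error.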
